A study of Mus musculus with 14 samples.

Results

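The transcripts described here are those of 7 genes that mark B cells and the antibody-secreting plasma cells that arise from them: Ighm, Igkv6-23, Jchain, Cd79a, Cd79b, Ms4a1 and Pou2af1. Every probe set whose only symbol in the array annotation is one of these genes was taken, which gave 24 of the 12488 probe sets on the array, for 7 of the 8252 genes that have a probe set with a single symbol. Of these 24, 9 exceeded a signal of 184.8, the median of all values, on at least 3 arrays and were tested, and 15 did not. The tested ones cover 6 of the 7 genes, and Pou2af1 had none. Liver total RNA had been hybridised to 14 Affymetrix mouse arrays, 1 mouse each. The groups were Snell dwarf mice of 22 months (n = 3), wild type control mice of 22 months (n = 3), Snell dwarf mice of 6 months (n = 4) and wild type control mice of 6 months (n = 4). Snell dwarfs are mutant in Pit-1 (Pou1f1), the factor that pituitary cells need to make growth hormone, prolactin and thyrotropin, so the mutation acts on the whole endocrine state of the animal and not on liver alone. The labels give a number for each animal and no sex, strain background or batch, and p-values measure the spread between these mice.

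A B cell carries a membrane immunoglobulin, built of heavy and light chains, that signals through the paired chains Cd79a and Cd79b. When it becomes a plasma cell it turns to secreting antibody, loses much of its surface machinery and makes very large amounts of immunoglobulin mRNA, with the joining chain added to polymers of IgM and IgA. Liver makes B cells before birth, while the adult organ holds a resident and circulating minority of lymphocytes among hepatocytes.

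Ighm encodes the constant region of the IgM heavy chain (chromosome 12, 113418826 to 113422730). Igkv6-23 is a kappa light chain variable segment (chromosome 6, 70260409 to 70260933), and Jchain encodes the joining chain (chromosome 5, 88519809 to 88527897). Cd79a (chromosome 7, 24897497 to 24901858) and Cd79b (chromosome 11, 106311341 to 106314562) encode the signalling chains of the B cell receptor. Ms4a1 encodes the B cell surface protein CD20 (chromosome 19, 11249679 to 11266149), and Pou2af1 encodes a lymphoid coactivator of the octamer-binding factors (chromosome 9, 51213690 to 51240079). Positions are those of RefSeq on GRCm38.p6.

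Promoter windows, 250 bases before to 50 bases after the gene start, were found for 3 of the 7 genes in RefSeq (GRCm38.p6). Those of Jchain, a plasma cell gene, and of Cd79a, a gene of the whole B lineage, are shown because these genes stand for the secreted and the surface side of the results below. Jchain lies at chr5:88527848-88528147 on the minus strand and Cd79a at chr7:24897247-24897546 on the plus strand, and capitals mark the single ETS core match.
Jchain: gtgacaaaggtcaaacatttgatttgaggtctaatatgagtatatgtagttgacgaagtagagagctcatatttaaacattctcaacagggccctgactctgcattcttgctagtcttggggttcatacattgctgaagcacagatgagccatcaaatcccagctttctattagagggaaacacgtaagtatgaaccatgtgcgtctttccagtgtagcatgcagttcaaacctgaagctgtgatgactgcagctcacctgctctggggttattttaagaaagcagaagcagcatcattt
Cd79a: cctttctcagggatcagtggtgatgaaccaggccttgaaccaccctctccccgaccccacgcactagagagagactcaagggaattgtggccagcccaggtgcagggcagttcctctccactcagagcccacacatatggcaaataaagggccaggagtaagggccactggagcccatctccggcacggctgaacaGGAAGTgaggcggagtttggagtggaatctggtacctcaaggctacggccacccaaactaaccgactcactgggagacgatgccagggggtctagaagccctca
The octamer ATGCAAAT, the site of the factors that the Pou2af1 protein joins, was searched on both strands and was in none of the 3 windows. It was in 570 of 32851 promoter windows of the same length (1.74%). The ETS core GGAAGT, a search added after the octamer gave no match, was in 7809 windows on either strand (23.8%). Among the 3 it was found in Cd79a, where it starts 54 bases before the gene start, and these matches describe letters, not binding.

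The probe sets ranged from signals at the level of the dimmest features to some of the brighter ones. The Ighm symbol is shared by 16 probe sets, of which 6 carry a suffix that Affymetrix gives to sequences shared within a gene family, so some may read other heavy chain sequences. The Igkv6-23 probe set carries such a suffix too, and may read other kappa segments. Signals of different probe sets are not on a common scale, and those of the members were not set against each other. Sums of signals over gene lists, given further below, rest mostly on the brightest probe sets.

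**Figure D1:**
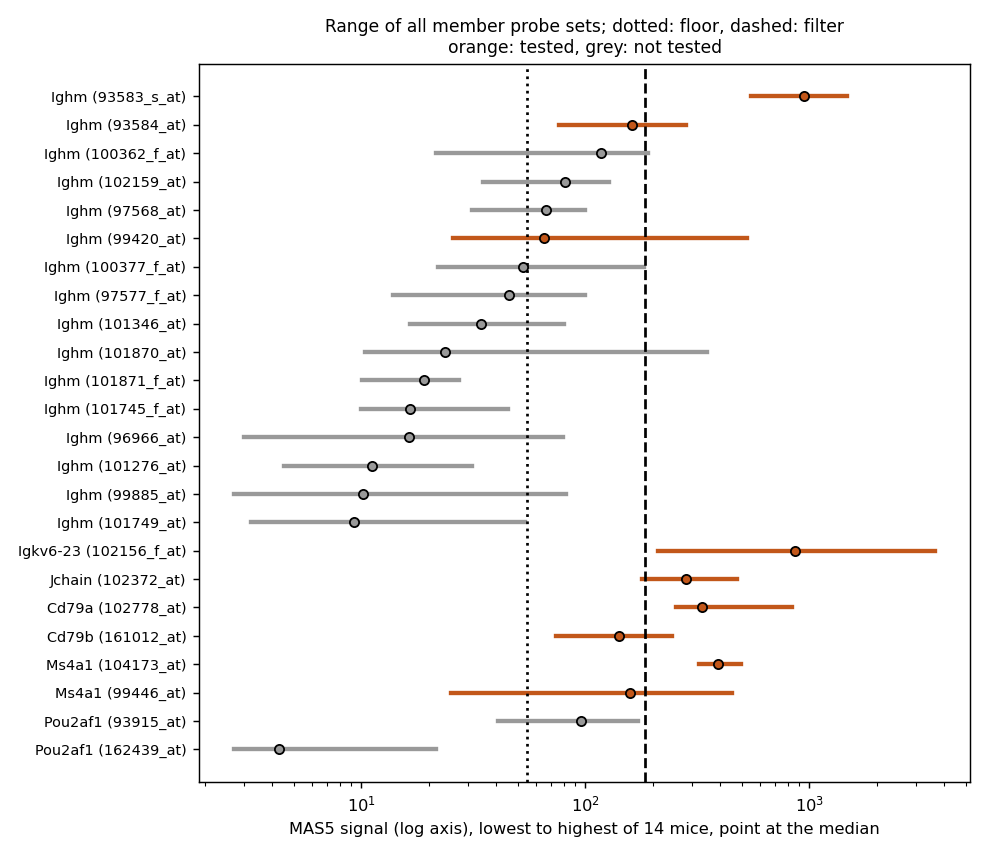
Range of the MAS5 signal over 14 mice (horizontal log axis) for all 24 probe sets, with the median as a point, the floor of 54.9 dotted and the filter of 184.8 dashed. Tested probe sets are orange and the others grey. Ighm probe set 93583_s_at spans 546 to 1467.3, and Pou2af1 probe set 162439_at spans 2.7 to 21.5, wholly below the floor.

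Igkv6-23, Jchain and the brightest Ighm probe set were each higher in dwarf than in wild type livers at 6 months, and each was higher in 22-month than in 6-month wild type livers. None of them passed the test between dwarf and wild type livers at 22 months. Cd79b was higher in 6-month dwarf livers, while Cd79a passed in no comparison. In the 6-month comparison 4 of the 9 tested probe sets were higher and 0 lower, against 13.3% of all tested probe sets called in either direction (460 higher and 502 lower of 7227). The members were chosen with earlier results of these data known, so this count is a description. Tests are limma's, with Benjamini-Hochberg adjustment over all 7227 probe sets and a threshold of 0.05 on the adjusted p. In these bulk samples, fewer cells of a type and less RNA per cell cannot be told apart.

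**Figure D2:**
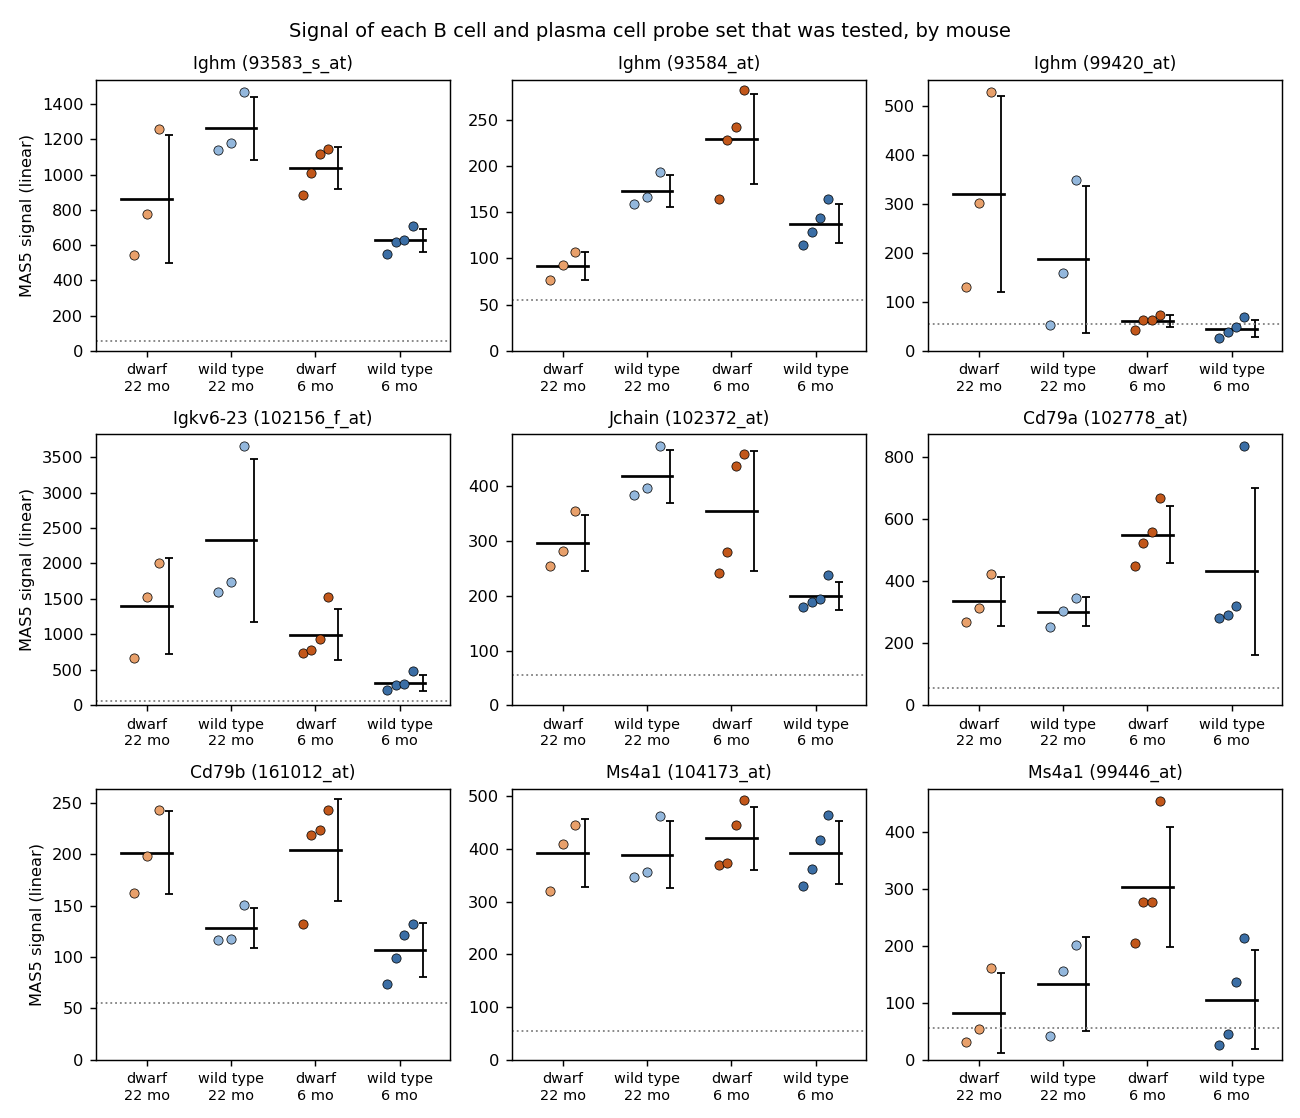
MAS5 signal (vertical linear axis from 0) of each mouse for the 9 tested probe sets, with the group mean as a bar, the SD as a whisker and the floor of 54.9 dotted. Dwarf mice are orange and wild type mice blue, paler at 22 months. In the Igkv6-23 panel the 4 dwarf mice of 6 months lie at 737.1 or more and the 4 wild type mice of 6 months at 476.2 or less.

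Igkv6-23 (probe set 102156_f_at) had signals of 780.1, 1521.6, 936.8 and 737.1 in 6-month dwarf livers, against 476.2, 293.4, 210.7 and 289.1 in 6-month wild type livers. Every 6-month dwarf lay above every 6-month wild type mouse. The difference was log2 1.65 ± 0.36 (SE), or 3.13-fold (95% interval 1.86 to 5.29, adjusted p = 0.00607). At 22 months the signals were 1530.9, 2011 and 670.6 in dwarf livers, against 1591.4, 1742.6 and 3650.2 in wild type livers. The 22-month groups overlapped, with dwarf animal 8 lowest and wild type animal 24 highest, and the difference of log2 -0.76 ± 0.41 did not pass (adjusted p = 0.485). Wild type livers averaged 2328.1 ± 1147 at 22 months (SD, n = 3) and 317.4 ± 113 at 6 months (n = 4), which is 7.12-fold higher at the later age (95% interval 4.05 to 12.5, log2 2.83 ± 0.38, adjusted p = 0.00152). In dwarf livers the age difference was log2 0.42 ± 0.38 (adjusted p = 0.470). Both calls for this gene held under every alternative that was run, each array of the compared groups left out in turn included, 19 at 6 months and 18 for wild type ageing.

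A further probe set, 93086_at, carries 5 kappa symbols, Igkv6-23 and the kappa constant gene Igkc among them, and so is no member. Its signals were 2291.6, 4709.6, 2659 and 3336.9 in 6-month dwarf livers, against 494.3, 1159.4, 1296.8 and 518 in 6-month wild type livers. These groups did not overlap, and the difference was log2 1.99 ± 0.59 (adjusted p = 0.0345). At 22 months it had 5732.4, 6570.1 and 587.8 in dwarf livers, against 4952.3, 6182.1 and 10185.6 in wild type livers. Dwarf animal 8 was again the lowest of the 22-month mice, below 2 of the 4 wild type mice of 6 months, and the 22-month difference did not pass (log2 -1.27 ± 0.68, adjusted p = 0.477). In wild type livers it was higher at 22 than at 6 months by log2 3.11 ± 0.63 (adjusted p = 0.0202). Probe set 99421_at has Ighm among several symbols, is no member either and passed in no comparison. In wild type livers it was lower at 22 than at 6 months, without overlap (log2 -0.43 ± 0.20, adjusted p = 0.268). Dwarf livers were higher at 22 months (log2 0.32 ± 0.21) and 6 months (log2 0.23 ± 0.18). Its signs in wild type ageing, at 22 months and in the interaction (log2 0.096) were opposite to those of the brightest Ighm member below. The other signs were the same.

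Ighm probe set 93583_s_at had 1009.3, 1118.9, 884.3 and 1143.1 in 6-month dwarf livers, against 548.4, 708.9, 628.3 and 619.2 in 6-month wild type livers. The groups were apart, and dwarf livers were 1.66-fold higher (log2 0.73 ± 0.20, adjusted p = 0.0272). At 22 months the signals were 777.9, 1258.7 and 546 in dwarf livers, against 1176.8, 1467.3 and 1139.9 in wild type livers. Dwarf animal 4 reached the wild type range and the other dwarfs lay below it. The difference of log2 -0.63 ± 0.24 did not pass (adjusted p = 0.224), but passed without dwarf animal 4 (log2 -0.94, adjusted p = 0.0220). Without that mouse the lower level at 22 than at 6 months in dwarf livers passed too (log2 -0.67, adjusted p = 0.0445), against log2 -0.35 ± 0.22 with it (adjusted p = 0.291). Wild type livers averaged 1261.3 ± 179 at 22 months (SD, n = 3) and 626.2 ± 65.7 at 6 months (n = 4), a 2.01-fold higher level at the later age (log2 1.01 ± 0.22, adjusted p = 0.0275).

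The calls for this Ighm probe set are near the threshold. The 6-month call was lost without wild type animal 82 or 86 or dwarf animal 85 or 89 (log2 0.67 to 0.73, adjusted p 0.0524 to 0.0731), and with all arrays scaled to a common median (log2 0.53, adjusted p = 0.125). The wild type ageing call was lost without any 1 of the 3 mice of 22 months or without animal 82, 84 or 86 of 6 months (log2 0.89 to 1.08, adjusted p 0.0520 to 0.103). Of 11 processing alternatives, 7 kept the 6-month call (adjusted p up to 0.125) and 8 the wild type ageing call (adjusted p up to 0.391).

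Jchain (102372_at), whose product joins IgM and IgA polymers, had 242.1, 436.2, 280.6 and 459.1 in 6-month dwarf livers, against 193.7, 178.7, 237 and 188.4 in 6-month wild type livers. The lowest dwarf lay just above the highest wild type mouse, and dwarf livers were 1.72-fold higher (log2 0.78 ± 0.22, adjusted p = 0.0280). At 22 months the signals were 354.1, 281.6 and 253.8 in dwarf livers, against 383.9, 396.1 and 474.1 in wild type livers. Here every dwarf lay below every wild type mouse, but the difference of log2 -0.50 ± 0.26 did not pass (adjusted p = 0.443). Wild type livers averaged 418.0 ± 48.9 at 22 months and 199.4 ± 25.8 at 6 months, 2.10-fold higher at the later age (log2 1.07 ± 0.24, adjusted p = 0.0282), and in dwarf livers the age difference was log2 -0.22 ± 0.24 (adjusted p = 0.555). The 6-month call was lost without wild type animal 82, 84 or 88 or dwarf animal 85 or 89 (log2 0.64 to 0.77, adjusted p 0.0561 to 0.0864) and under both other scalings (log2 0.64 and 0.59, adjusted p 0.0740 and 0.0944). The wild type ageing call was lost without any 1 of the 3 mice of 22 months or animal 82, 84 or 86 (log2 0.98 to 1.16, adjusted p 0.0511 to 0.119). Of 10 processing alternatives, 6 kept the 6-month call (adjusted p up to 0.0944) and 8 the wild type ageing call (adjusted p up to 0.333).

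Of the other tested Ighm probe sets, 93584_at had the same sign as 93583_s_at in all 5 comparisons and passed in dwarf ageing and the interaction. It had 92.9, 106.9 and 76.5 in 22-month dwarf livers, against 242.3, 164.3, 228.3 and 282.1 in 6-month dwarf livers. All 22-month dwarfs lay below all 6-month dwarfs, and the level was lower at 22 months by log2 -1.30 ± 0.28 (adjusted p = 0.00789). Wild type livers had 166.9, 193.1 and 159.2 at 22 months and 144.1, 114.3, 164.1 and 128.1 at 6 months, which overlapped (log2 0.34 ± 0.28, adjusted p = 0.579). Dwarf livers lay wholly above wild type livers at 6 months (log2 0.72 ± 0.26, adjusted p = 0.0806) and wholly below them at 22 months (log2 -0.92 ± 0.30, adjusted p = 0.144), neither of which passed. The 6-month difference passed without dwarf animal 85 (log2 0.87, adjusted p = 0.0497). This probe set entered the test through 4 arrays, 3 of 6-month dwarfs and 1 of a 22-month wild type mouse. High values in 6-month dwarfs lower the dwarf age difference, and high values in either group lower the interaction, so the filter favoured both calls. The dwarf ageing call was kept under 8 of 10 processing alternatives, with an adjusted p of up to 0.191.

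Probe set 99420_at had 528.4, 302.7 and 129.3 in 22-month dwarf livers, against 43.3, 72.4, 63.1 and 62.2 in 6-month dwarf livers. It was 4.37-fold higher at 22 months (log2 2.13 ± 0.58, adjusted p = 0.0221), with values spread widely among the older mice. Wild type livers had 53.2, 348.6 and 159.1 at 22 months and 68, 38.7, 25.6 and 49.1 at 6 months, and did not pass (log2 1.32 ± 0.58, adjusted p = 0.243). It entered the test through 3 arrays, all of 22-month mice, so that a level above the 6-month mice was a condition of being tested. Without dwarf animal 3 the dwarf value was log2 1.65 (adjusted p = 0.139), and without dwarf animal 4 it was 2.06 (adjusted p = 0.0752). Of 10 processing alternatives, 8 kept the call in dwarf ageing, with an adjusted p of up to 0.252. At 22 months the dwarf minus wild type difference was log2 0.92 ± 0.62 (adjusted p = 0.630), and the interaction was log2 0.80 ± 0.81 (adjusted p = 0.707). Neither passed. Both signs, and that of dwarf ageing, were opposite to those of the other tested Ighm probe sets. The signs at 6 months (log2 0.12 ± 0.53) and in wild type ageing were the same.

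The 13 Ighm probe sets that were not tested stayed low. Of these, 101870_at had 45.7, 180 and 348.3 in 22-month wild type livers and 49.5 or less on the other 11 arrays. Probe set 100362_f_at lay between 130.5 and 179.6 on all 6 arrays of 22-month mice, while its 6-month values ran from 28.2 to 190.3 in dwarf livers and from 21.6 to 105.1 in wild type livers. Both were singled out after their values were seen. With no filter on signal, none of the 15 untested probe sets passed in any of the 5 comparisons.

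Cd79b (161012_at) had 218.6, 223.4, 131.9 and 243.5 in 6-month dwarf livers, against 121.8, 98.7, 73.7 and 132.5 in 6-month wild type livers. Dwarf animal 87 lay within the wild type range and the other dwarfs above it, and dwarf livers were 1.91-fold higher (log2 0.93 ± 0.29, adjusted p = 0.0467). At 22 months the signals were 243.5, 198.2 and 162.5 in dwarf livers, against 116.1, 117.2 and 150.5 in wild type livers. These groups did not overlap, with a difference of log2 0.65 ± 0.34 that did not pass (adjusted p = 0.470). All 5 arrays above the filter were of dwarf mice, 2 of 22 months and 3 of 6 months, so this probe set was tested through the group in which it was higher. The 6-month call was lost without wild type animal 82, 84 or 86 or dwarf animal 83, 85 or 89 (log2 0.77 to 1.01, adjusted p 0.0591 to 0.115), under quantile normalization (log2 0.71, adjusted p = 0.155) and with a common median (log2 0.74, adjusted p = 0.132). Only 3 of 10 processing alternatives kept it.

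Cd79a (102778_at), the partner of Cd79b in the receptor, had 559.6, 523.9, 668.1 and 447.5 in 6-month dwarf livers, against 834.6, 290.9, 319.5 and 281.7 in 6-month wild type livers. Wild type animal 82 was the highest of all mice, and the other 3 wild type mice lay below every dwarf. The difference was log2 0.50 ± 0.29 (adjusted p = 0.272), and without animal 82 it was log2 0.87 (adjusted p = 0.0128). At 22 months Cd79a had 269.5, 421.9 and 313.7 in dwarf livers, against 252.5, 305 and 346.5 in wild type livers, which overlapped (log2 0.14 ± 0.34, adjusted p = 0.964). All 22-month dwarfs lay below all 6-month dwarfs, with log2 -0.73 ± 0.32 (adjusted p = 0.124).

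The probe sets of Ms4a1 disagreed. Probe set 104173_at ran from 320 to 445.2 in 22-month dwarf livers, from 347.6 to 462.4 in 22-month wild type livers, from 369.8 to 492.7 in 6-month dwarf livers and from 329.4 to 464.1 in 6-month wild type livers. All groups overlapped, and the 95% interval of the 6-month genotype difference was log2 -0.28 to 0.48. Probe set 99446_at had 205.3, 277.2, 276.7 and 453.2 in 6-month dwarf livers, against 136.7, 213.9, 25.2 and 45.8 in 6-month wild type livers. The groups overlapped through wild type animal 84, and the difference of log2 1.58 ± 0.54 did not pass (adjusted p = 0.0626) but did without that animal (log2 1.97, adjusted p = 0.0303).

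With age, 99446_at had 31.6, 53.2 and 161.6 in 22-month dwarf livers, below all 6-month dwarfs, a fold of 3.69 lower (log2 -1.89 ± 0.58, adjusted p = 0.0382). Wild type livers of 22 months had 41.5, 200.5 and 155.4, within the range of those of 6 months (log2 0.30 ± 0.58, adjusted p = 0.830). This probe set was at or below the floor on 5 of 14 arrays. It entered the test through 6 arrays, 4 of 6-month dwarfs, 1 of a 22-month wild type mouse and 1 of a 6-month wild type mouse, so it was tested mainly through the group in which it was higher. The call in dwarf mice was lost without dwarf animal 3 or 4 of 22 months or 85, 87 or 89 of 6 months (log2 -1.91 to -1.63, adjusted p 0.0664 to 0.143) and under both other scalings (log2 -1.75 each, adjusted p 0.0543 and 0.0538). Only 4 of 10 processing alternatives kept it, with an adjusted p of up to 0.279.

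Pou2af1 stayed below the filter. Probe set 93915_at ran from 47.6 to 85.3 in 22-month dwarf livers, from 40.7 to 121 in 22-month wild type livers, from 108.6 to 170.8 in 6-month dwarf livers and from 45.5 to 112.4 in 6-month wild type livers. Probe set 162439_at lay at 2.7 to 21.5, below the floor on all 14 arrays. At 6 months the lowest dwarf on 93915_at lay between the 2 highest wild type mice, so these groups overlapped.

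**Figure D3:**
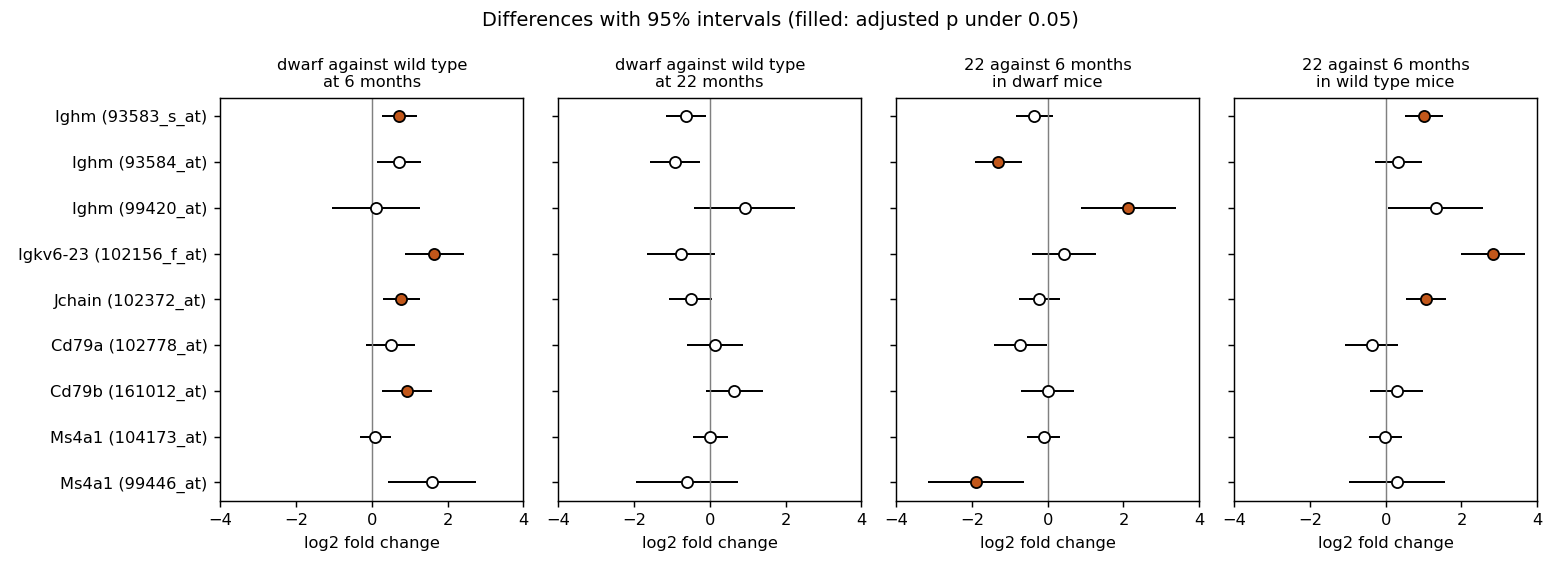
Log2 fold change (horizontal axis) with its 95% interval for the 9 tested probe sets in each comparison, filled where the adjusted p was under 0.05. Igkv6-23 lies at 1.65 for dwarf against wild type at 6 months and at 2.83 for 22 against 6 months in wild type mice.

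The counts per comparison are descriptions, since 4 of the 9 probe sets entered the test through 3 to 6 arrays. The members were also chosen with earlier results of these data known. A count above the share of all probe sets, or a median apart from that of all probe sets, is therefore no evidence about the members. Between dwarf and wild type livers of 6 months the median log2 difference of the 9 tested probe sets was 0.73, against 0.10 over all tested probe sets. Scaling the arrays to a common median moved the median of all probe sets by -0.20 in this comparison and left 1 member call, that of Igkv6-23. Between dwarf and wild type livers of 22 months 0 of 9 passed in limma, against 2.93% of all tested probe sets, and 2 of the 9 had an unadjusted p under 0.05. Their median log2 difference was -0.50, against 0.01 over all.

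Between 22-month and 6-month dwarf livers 1 of 9 was higher and 2 were lower, against 16.5% of all tested probe sets called. The higher one was Ighm 99420_at, and the lower ones were Ighm 93584_at and Ms4a1 99446_at. Each entered the test only or mainly through arrays of the age at which it was higher in dwarfs. The filter thus favoured these calls, and the count is no result about the members. No member probe set above the filter on 13 or 14 arrays was called in this comparison. Between 22-month and 6-month wild type livers 3 of 9 were higher and 0 lower, against 2.49% of all tested probe sets called. Those 3 were Igkv6-23, Jchain and Ighm 93583_s_at. The 6-month wild type mice serve in both this comparison and the genotype comparison at 6 months, so the pair of results is not independent.

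The interaction tests whether the dwarf minus wild type difference at 22 months departs from that at 6 months. It was negative and passed for 3 of 9 probe sets, against 2.19% of all tested probe sets. It was log2 -2.41 ± 0.54 for Igkv6-23 (adjusted p = 0.0319), -1.36 ± 0.31 for Ighm 93583_s_at (adjusted p = 0.0339) and -1.64 ± 0.40 for Ighm 93584_at (adjusted p = 0.0448). Ighm 93584_at entered the test through 6-month dwarfs and a 22-month wild type mouse, whose high values make the interaction negative. Its call, and with it the count of 3, is therefore not free of the filter. For Jchain the interaction was -1.29 ± 0.34 (adjusted p = 0.0640). Jchain passed without dwarf animal 83 (-1.45, adjusted p = 0.0291). Each interaction call was lost when some arrays were left out. The Igkv6-23 call was lost without wild type animal 24, 84, 86 or 88 or dwarf animal 3, 8 or 87 (-2.55 to -1.95, adjusted p 0.0527 to 0.0913). The Ighm 93583_s_at call was lost without wild type animal 1, 2, 24, 82, 86 or 88 or dwarf animal 3, 8, 85 or 89 (-1.42 to -1.07, adjusted p 0.0536 to 0.0946). The Ighm 93584_at call was lost without any 1 array other than that of dwarf animal 85 (-1.75 to -1.51, adjusted p 0.0580 to 0.115). Of the processing alternatives, 7 of 10 kept the Igkv6-23 call, 5 of 10 that of Ighm 93583_s_at and 3 of 9 that of Ighm 93584_at.

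The arrays themselves differed between these groups. The 3' to 5' signal ratio of the beta-actin control, a measure of RNA integrity, was 1.25 to 1.57 in 22-month dwarfs, 1.52 to 1.74 in 22-month wild type mice, 2.29 to 2.69 in 6-month dwarfs and 1.16 to 2.38 in 6-month wild type mice. The mean 18S control signal was 241.6 to 542.6 in 22-month dwarfs, 204.3 to 2020.9 in 22-month wild type mice, 59.8 to 148.5 in 6-month dwarfs and 52.6 to 271.5 in 6-month wild type mice, with wild type animal 2 highest. The median signal was 186.85 to 221.05 in 6-month dwarfs and 174.85 to 183.2 in 6-month wild type mice. With the 3' to 5' ratio as a covariate 1 of 9 probe sets passed at 6 months and 0 for the interaction, and with the 18S signal as a covariate 1 passed for wild type ageing and 0 for dwarf ageing. In each of those with 1 left it was Igkv6-23.

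Among other genes of B cell surface and signalling, 23 of 30 listed were on the array and 11 were tested. Between 6-month dwarf and wild type livers 2 of 11 were higher and 0 lower, against 13.3% of all tested probe sets called, with a list median of log2 0.75 against 0.10 over all. They were Pax5, the factor that fixes B cell identity (log2 0.75 ± 0.22, adjusted p = 0.0346), and Cd24a, a surface protein of immature and other cells (log2 0.77 ± 0.23, adjusted p = 0.0407), and both calls were lost with a common median (adjusted p 0.105 and 0.114). Between 22-month dwarf and wild type livers 0 of 11 passed in limma. Between 22-month and 6-month dwarf livers 3 of 11 were lower, against 16.5% of all called: the receptor kinase Syk (log2 -0.90), the lymphoid factor Spib (log2 -0.70) and the lymphoid factor Ikzf1 (log2 -1.70), all of which also lost the call with a common median. Ikzf1 was at 106.4 or less in 22-month dwarf livers, all below the filter of 184.8, and reached 461.3 in 6-month dwarf livers. The filter thus favoured the Ikzf1 call. In wild type ageing 0 of 11 passed. Several defining B cell markers were too dim to test: Cd22 ran from 27.2 to 216.1, Cd72 from 9.4 to 68.2 and Cr2 from 3.9 to 63.2 over the 14 arrays.

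Of the plasma cell and secretory list 12 of 16 were on the array and 7 were tested. Pim2, a survival kinase of plasma cells and other blood cells, was higher in 6-month dwarf than in wild type livers (log2 1.36 ± 0.43, adjusted p = 0.0481), a call lost with a common median (adjusted p = 0.0816). Xbp1, which drives secretion in plasma cells and also in hepatocytes, was lower in dwarf than in wild type livers at 22 months (log2 -1.03 ± 0.19, adjusted p = 0.00403) and at 6 months (log2 -0.52 ± 0.16, adjusted p = 0.0434). The 6-month call was lost under quantile normalization (adjusted p = 0.0853). Pigr, the epithelial and hepatocyte receptor that carries polymeric IgA and IgM bound through the joining chain, was lower in 22-month than in 6-month dwarf livers (log2 -0.81 ± 0.17, adjusted p = 0.00753). The plasma cell factor Irf4 was at or below the floor on all 14 arrays, from 9.4 to 46, and Prdm1 ran from 73 to 176.6.

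Of 13 other immunoglobulin genes tested, 0 passed in limma between dwarf and wild type livers at 22 or at 6 months. Igha, the IgA heavy chain, was higher in 22-month than in 6-month wild type livers (518.1 ± 128 and 167.0 ± 129, log2 1.91 ± 0.48, adjusted p = 0.0465), a call lost under both other scalings (adjusted p 0.0571 and 0.0562). In dwarf livers it averaged 750.3 ± 346 at 22 months and 309.4 ± 93.8 at 6 months (log2 1.21 ± 0.48, adjusted p = 0.0935). Igkv7-33 was lower in 22-month than in 6-month dwarf livers (log2 -0.88 ± 0.20, adjusted p = 0.0103). Of the early B lineage list 5 of 10 were tested, with a median of log2 0.03 at 22 months and 0.0025 at 6 months between dwarf and wild type livers. Of these 5, 4 passed in no comparison: at 6 months the recombinase gene Rag1 was at log2 0.39, Igll1 at 0.35, Vpreb1 at 0.0025 and Lef1 at -0.33. Dntt, which adds bases during receptor gene assembly, was lower in dwarf than in wild type livers at 22 months (log2 -2.03 ± 0.50, adjusted p = 0.0332) and at 6 months (log2 -1.48 ± 0.43, adjusted p = 0.0322).

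**Figure D4:**
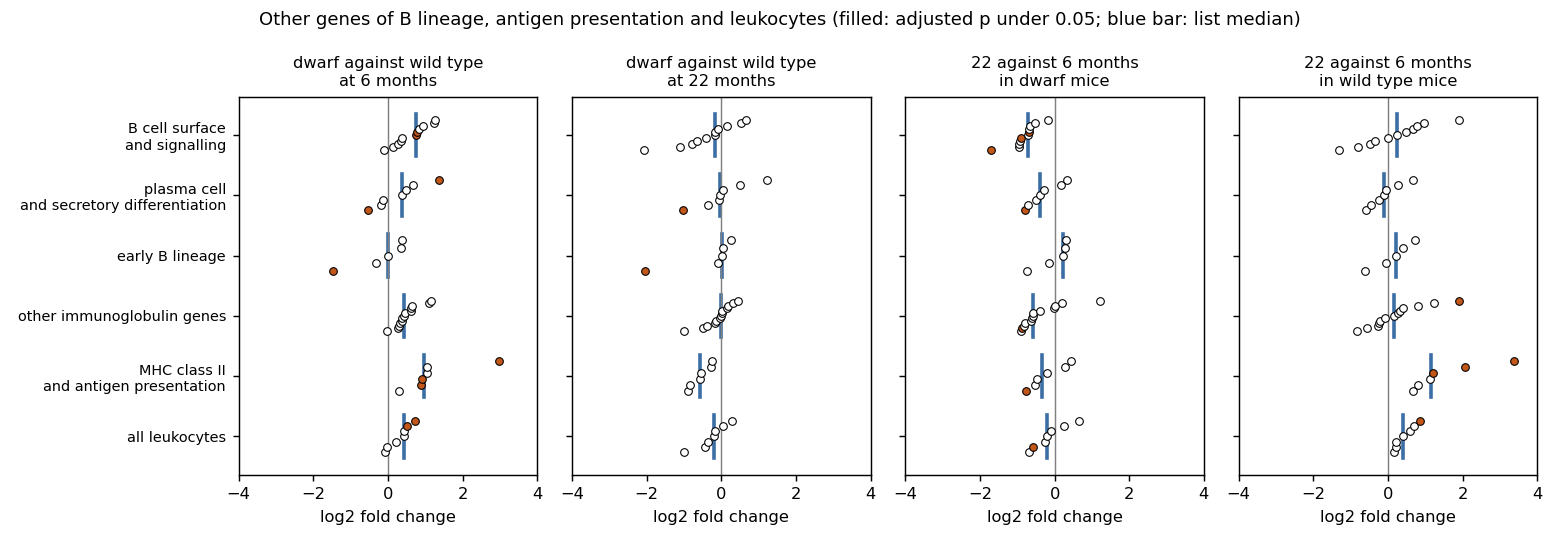
Log2 fold change (horizontal axis) of each tested gene of 6 lists in 4 comparisons, filled where the adjusted p was under 0.05, with the list median as a blue bar. In wild type ageing the filled points are 3 MHC class II genes, Laptm5 and Igha.

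Markers of other cells moved in the same comparisons, and their part in the results above was not tested. Of 6 tested MHC class II genes, which B cells, macrophages and dendritic cells share, 3 were higher in 6-month dwarf than in wild type livers (H2-Aa, H2-Eb1 and Cd74, against 13.3% of all called), H2-Aa by log2 2.98 ± 0.39 (adjusted p = 9.34e-05). In wild type ageing 3 were higher too (H2-Aa, H2-Ab1 and Cd74, against 2.49% of all), H2-Aa by log2 3.39 ± 0.42 (adjusted p = 0.000816). No 6-month wild type array exceeded the filter for H2-Aa (at most 150.6) or H2-Ab1 (at most 113.3). The filter thus favoured the calls of these genes. In the interaction H2-Aa, H2-Eb1 and Cd74 were lower, against 2.19% of all. With a common median Cd74 lost its call at 6 months (adjusted p = 0.113), in wild type ageing (adjusted p = 0.0598) and in the interaction (adjusted p = 0.0867), and H2-Eb1 lost that of the interaction (adjusted p = 0.0600). The summed class II signal was 3485.8 to 4202.3 in 22-month dwarfs, 4810.2 to 8660 in 22-month wild type mice, 3448.4 to 6963.4 in 6-month dwarfs and 1936.8 to 3468.1 in 6-month wild type mice.

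Of 7 genes shared by all leukocytes, 2 (Cd52 and Laptm5) were higher in 6-month dwarf than in wild type livers, against 13.3% of all called. In wild type ageing 1 of them, the lysosomal protein gene Laptm5, was higher (log2 0.85 ± 0.13, adjusted p = 0.00474), against 2.49% of all called. With a common median neither of the 2 passed at 6 months (adjusted p 0.122 and 0.131), while H2-Aa passed in both comparisons. Their summed signal was 2636.8 to 2847.5 in 22-month dwarfs, 3233.1 to 3537.8 in 22-month wild type mice, 3024.9 to 3544.1 in 6-month dwarfs and 2471.8 to 2620.6 in 6-month wild type mice.

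Of 9 myeloid and Kupffer cell genes 0 passed at 6 months in limma. The Kupffer cell lectin gene Clec4f was lower in dwarf than in wild type livers at 22 months (log2 -1.16 ± 0.26, adjusted p = 0.0196), a call kept under both other scalings. In wild type ageing the list median was log2 0.68, against -0.02 over all, and Lyz2 was the 1 gene that passed as higher in wild type ageing (log2 0.75 ± 0.18, adjusted p = 0.0391), a call lost under both other scalings (adjusted p 0.0638 and 0.0698). The summed signal of the 9 was 4927.3 to 6154.8 in 22-month dwarfs, wholly below the 7288.9 to 10868.5 of 22-month wild type mice, and 5341.8 to 6453.1 in 6-month dwarfs, within the 4746.3 to 8343.8 of 6-month wild type mice.

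T cell genes were mostly too dim to test, with 4 of 15 tested and the defining Cd3e between 41.1 and 129.3. Of the 4, Zap70, a T cell receptor kinase, was lower in dwarf than in wild type livers at 22 months (log2 -4.003 ± 0.31) and at 6 months (log2 -3.49 ± 0.27). Its dwarf signals, 140.2 or less, were all below the filter. It was thus tested through wild type arrays only, which favoured both calls. The other 3 did not pass and had positive values at 6 months, Cd4 of log2 0.51, Thy1 of 0.63 and Lat of 0.28, for a list median of 0.40 at that age and -0.23 at 22 months. Of 2 tested natural killer cell genes the receptor gene Klrk1 was higher in 6-month dwarf than in wild type livers (log2 1.39 ± 0.41, adjusted p = 0.0335), a call lost with a common median (adjusted p = 0.0513). Both were lower in 22-month than in 6-month dwarf livers, the granule protease gene Gzmb by log2 -1.83 (adjusted p = 0.0169) and Klrk1 by log2 -1.38 (adjusted p = 0.0435, lost under both other scalings). No 22-month array exceeded the filter of 184.8 for either gene. All 6-month dwarf arrays did, with Gzmb at 200.1 or more and Klrk1 at 217.7 or more. The filter thus favoured these calls and that of Klrk1 at 6 months. Of 4 tested erythroid genes Alas2, the first enzyme of heme synthesis in red cell precursors, was lower in 6-month dwarf than in wild type livers (log2 -2.48 ± 0.20, adjusted p = 7.72e-07) and Ank1 higher (log2 0.55 ± 0.16, adjusted p = 0.0323, lost with a common median). Alas2 was also higher in 22-month than in 6-month dwarf livers (log2 1.37) and in the interaction (log2 1.89). Of 4 neutrophil genes Camp was lower in dwarf ageing (log2 -1.33, adjusted p = 0.00810).

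Hepatocyte genes were also higher in 6-month dwarf livers for 3 of 9 (log2 0.44 to 0.59) and endothelial genes for 3 of 5 (log2 0.79 to 0.97), against 13.3% of all called. With a common median none of those 3 hepatocyte genes passed (adjusted p 0.0981 to 0.247), and under quantile normalization Cps1 did (adjusted p = 0.0156). Of the endothelial genes Kdr lost its call with a common median (adjusted p = 0.0554), while Stab1 and Ramp2 kept theirs. In dwarf ageing 4 of 9 hepatocyte genes and 1 of 5 endothelial genes were lower, against 16.5% of all called, and with a common median Pck1 alone of these 5 passed.

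Across the 14 mice Ighm, Igkv6-23 and Jchain were correlated. Ighm 93583_s_at and Igkv6-23 had a Pearson r of 0.75 (Spearman rho 0.78), Ighm and Jchain 0.75 (rho 0.72), and Igkv6-23 and Jchain 0.79 (rho 0.77). These 3 of 15 pairs among 6 genes passed a permutation test after Benjamini-Hochberg adjustment (adjusted p 0.0168, 0.0168 and 0.0163 for r and 0.0149, 0.0254 and 0.0149 for rho). The permutation moved mice freely across the 4 groups, so these p-values take in the group differences already called. They do not test a relation between mice of the same group. Without the 2 mice farthest from the median the values of r were 0.80, 0.73 and 0.77. With the group means taken out the values of r were 0.38, 0.21 and 0.29, so the relation was weaker within the 4 groups, and it was not tested there. Cd79a and Cd79b had an r of 0.22 (adjusted p = 0.739).

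Among all tested probe sets with 1 symbol, Laptm5 had the pattern most like each of these genes over the 14 arrays, with r = 0.86 for Ighm 93583_s_at, 0.87 for Igkv6-23 and 0.88 for Jchain. With group means taken out these were 0.57, 0.31 and 0.51. H2-Aa was among the 3 nearest for Igkv6-23 (r = 0.83) and Jchain (r = 0.86). The rest of the 3 nearest were Foxa3 (r = 0.84) and Pbx2 (r = 0.80) for Ighm 93583_s_at, Nsmce1 (r = 0.86) for Igkv6-23 and Sult1a1 (r = 0.85) for Jchain. The nearest to Ighm 93584_at was Gatm (r = 0.88) and to Ighm 99420_at Ambra1 (r = 0.88). The nearest to Cd79a was Sult2b1 (r = 0.90) and to Cd79b Adssl1 (r = 0.91). These values are descriptions of arrays that share groups, and the nearest were picked from all tested probe sets.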

How the data were processed

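The authors deposited 1 linear signal intensity for every probe set and array. The submitters' processing notes name MAS5 as its source. The trimmed mean of each array (2% at each end) was 500.357 to 500.437, and intensities were used as deposited. The scaling target and detection calls are not given in the sources used here. Liver RNA was snap frozen, extracted and biotin-labelled, per the labels' protocols. The number of arrays limits the precision.

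Signals under 54.9, the 25th percentile of all values, were set to it, log2 was taken, and probe sets above the pooled median on at least 3 arrays were tested. After 66 controls were left out, 7227 remained. limma 3.58.1 in R 4.3.3 (1 mean per group, all 14 arrays, eBayes with an intensity trend) gave 5 contrasts, adjusted by Benjamini-Hochberg over all 7227. The pipeline was tested on simulated data. Symbols came from the platform annotation (10855 probe sets with 1 symbol, 396 with several, 1237 with none listed) and RefSeq. Where a listed gene had more than 1 tested probe set, the brightest stood for it.

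All member probe sets are named, with up to 4 passing genes with the smallest p of each B lineage list and comparison, at most 2 of other lists, and the 3 probe sets most like each member. The members and lists were chosen with earlier results of these data known. Alternatives were 2 scalings, 2 floors, 2 filters, 2 variance models, 2 covariates, fits of the compared pair of groups, and dropping 1 array at a time. Protein sequences were not used here.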

Additional observations from a re-analysis of the deposited data

Results flagged for a closer look

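Cd79a in 6-month wild type livers had 1 mouse, animal 82, at 834.6, far from the other 3 by Dixon's test (the gap was 0.93 of the range). Chance alone picks out about 1 in 20 groups in this way.

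The dwarf minus wild type difference was lower at 22 than at 6 months, by the interaction test, for Ighm 93583_s_at (log2 -1.36, adjusted p = 0.0339), for Ighm 93584_at (log2 -1.64, adjusted p = 0.0448) and for Igkv6-23 (log2 -2.41, adjusted p = 0.0319). The filter favoured the call of Ighm 93584_at, which entered the test through 6-month dwarfs and a 22-month wild type mouse. For Ighm 93584_at the dwarfs lay wholly below the wild type mice at 22 months and wholly above them at 6 months. The same held for Jchain, whose interaction was log2 -1.29 and did not pass (adjusted p = 0.0640). The 4 groups differ also in the 3' to 5' ratio and the 18S signal, and their part in these differences was not tested beyond the covariate fits.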

How the results depend on the processing

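Of 834 alternative values, 680 kept direction and side of the threshold, 108 kept direction and lost the call, 10 gained it and 36 changed sign. No paired analysis was possible because the groups share no animal numbers. The cause of the changes was not tested. At 6 months, where 4 of 9 passed, 2 passed under quantile normalization, with a filter at the 75th percentile and with the compared groups alone, 1 with a common median and 1 with the 3' to 5' ratio as a covariate, and 1 to 4 with an array left out. At 22 months, where 0 passed, 1 passed without an intensity trend and 0 to 1 with an array left out. In dwarf ageing, where 3 passed, 0 passed with the 75th percentile filter and with either covariate, and 1 to 3 with an array left out. In wild type ageing, where 3 passed, 1 passed with no filter and with the 18S covariate, and 1 to 3 with an array left out. For the interaction, where 3 passed, 1 passed with a common median, with no filter and without an intensity trend, 0 with the ratio covariate, and 0 to 3 with an array left out. With no filter fewer of all probe sets were called too, 0.821% in wild type ageing and 0.555% for the interaction, against 2.49% and 2.19% with it. Shares of all probe sets under the other settings are not given here, so these member counts are not set against them.

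Sign changes touched differences that had not passed. For Ighm 99420_at at 6 months the value was -0.058 under quantile normalization and -0.020 with a common median. Cd79b in dwarf ageing was 0.20 under both scalings, 0.043 with array weights and -0.20 to 0.14 with an array left out. Ms4a1 104173_at at 6 months was -0.0039 under quantile normalization and -0.098 with a common median. At 22 months it was -0.039 with array weights, -0.010 and -0.049 with the 18S and ratio covariates and -0.090 to 0.15 with an array left out. In dwarf ageing it was 0.016 and 0.097 under the 2 scalings and -0.20 to 0.035 with an array left out, and in wild type ageing 0.047 with weights, 0.073 with 18S and -0.15 to 0.069 with an array left out. Its interaction was 0.018 and 0.11 under the 2 scalings and -0.19 to 0.049 with an array left out. Ms4a1 99446_at in wild type ageing was -0.78 with the 18S covariate and -0.069 to 0.87 with an array left out. Cd79a in wild type ageing was 0.030 with that covariate and -0.51 to 0.0091 with an array left out, and at 22 months it was -0.039 to 0.28. Signals near the floor limit Ighm 99420_at, Ms4a1 99446_at and Pou2af1.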

Other observations

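Dwarf animal 8 of 22 months had the lowest kappa signal of its group on both kappa probe sets, 670.6 on Igkv6-23 and 587.8 on the probe set of 5 kappa symbols, and also the lowest Ighm signal on 93583_s_at (546) and 93584_at (76.5) and the lowest Jchain signal (253.8). On Ms4a1 99446_at it was the highest of its group (161.6). Its beta-actin 3' to 5' ratio of 1.25 was the lowest of the 22-month mice.

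Of 77 immunoglobulin probe sets on the array, 25 were tested. At 6 months 3 of the 25 were higher in dwarf livers and 0 lower, against 13.3% of all tested probe sets called. They were Igkv6-23, Ighm 93583_s_at and 93086_at, all given above. In wild type ageing 4 were higher and 0 lower, against 2.49% of all, and these were the same probe sets and Igha. Of the 13 with 1 symbol that are not members, 0 were called at 6 months and 1 in wild type ageing. The counts over the 25 thus mostly repeat the member results.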
